A study of Arabidopsis thaliana with 16 samples.

Results

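AT4G22460 and AT5G01870 are Arabidopsis thaliana genes of the lipid transfer protein family whose signals differed in opposite directions between the cpc try mutant and wild type. They were chosen by that measured difference, the log2 difference of signal between cpc try and wild type arrays, and each was found by its locus name in the platform annotation, with 1 probe set per gene. They are 2 of 13513 probe sets that the annotation assigned to a single gene. Proteins of this family are small and secreted, hold a conserved pattern of cysteines joined by disulphide bridges, and enclose a hydrophobic cavity that takes up lipids. In plants they have been linked to the building of surface layers such as cutin and suberin, to the loosening of cell walls and to responses to stress. The epidermis of the root, where several of them are made, consists of files of hair and non-hair cells.

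Affymetrix ATH1 arrays were hybridized with RNA from root tips of 4 genotypes on 2 media, with 2 biological replicates in each of the 8 groups. The genotypes, all labelled Columbia, were cpc-1 try-82 (cpc try), wer-1 myb23-1 (wer myb23), scm-2 (scm) and wild type. CPC and TRY are small MYB proteins that act against non-hair fate, WER and MYB23 are MYB proteins that drive non-hair fate, and SCM is a receptor-like kinase that carries positional information to the epidermis. Seedlings grown for 5 days were moved for 1 h to medium with 140 mM NaCl (salt) or to medium without added NaCl (standard), and about 30 root ends, cut about 5 mm above the tip, were pooled for each replicate. The series title poses the question of how plants with altered hair patterning respond to salt stress. The medium entry of the labels names NaCl for mutant arrays titled standard, and for cpc try and scm another number of days; titles and descriptions were followed.

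All arrays had a mean signal of 250.03 once the outer 2% at either end was trimmed, and replicates correlated with r from 0.907 to 0.952 over probe sets. Of all signals, 25% lay under 21.7 and 50% under 78.0, which gives a scale for the levels of single genes. TRY, the only mutated gene that could be named, read 481 to 870 on the 4 arrays labelled cpc try and 1.90 to 49.7 on the other 12, so it was higher where the label names a mutant allele; where its probes lie relative to try-82 was not analysed here. The 5 root hair markers that could be named had a summed signal of 61.4 to 103 on the arrays labelled cpc try, against 3067 to 6065 on the wild type arrays. Of the listed markers of other root tissues only JKD, a regulator of ground tissue, could be named, and it read 15.9 to 127 over all arrays. None of the 6 leaf markers could be named.

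AT4G22460 was bright in every genotype but the one labelled cpc try. On salt its signal was 7.45 and 2.04 in cpc try, 435 and 371 in wer myb23, 551 and 493 in scm, and 649 and 521 in wild type. On standard medium it was 33.8 and 38.0 in cpc try, 688 and 808 in wer myb23, 660.1 and 739 in scm, and 1007 and 819.5 in wild type. The 4 arrays labelled cpc try held the lowest values, and the other 12 lay between 371 and 1007 with a median of 655. On each of these 12 arrays AT4G22460 stood between the 80.7th and the 92.5th percentile of all probe sets, against the 4.66th to the 35.8th on the cpc try arrays.

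**Figure D1:**
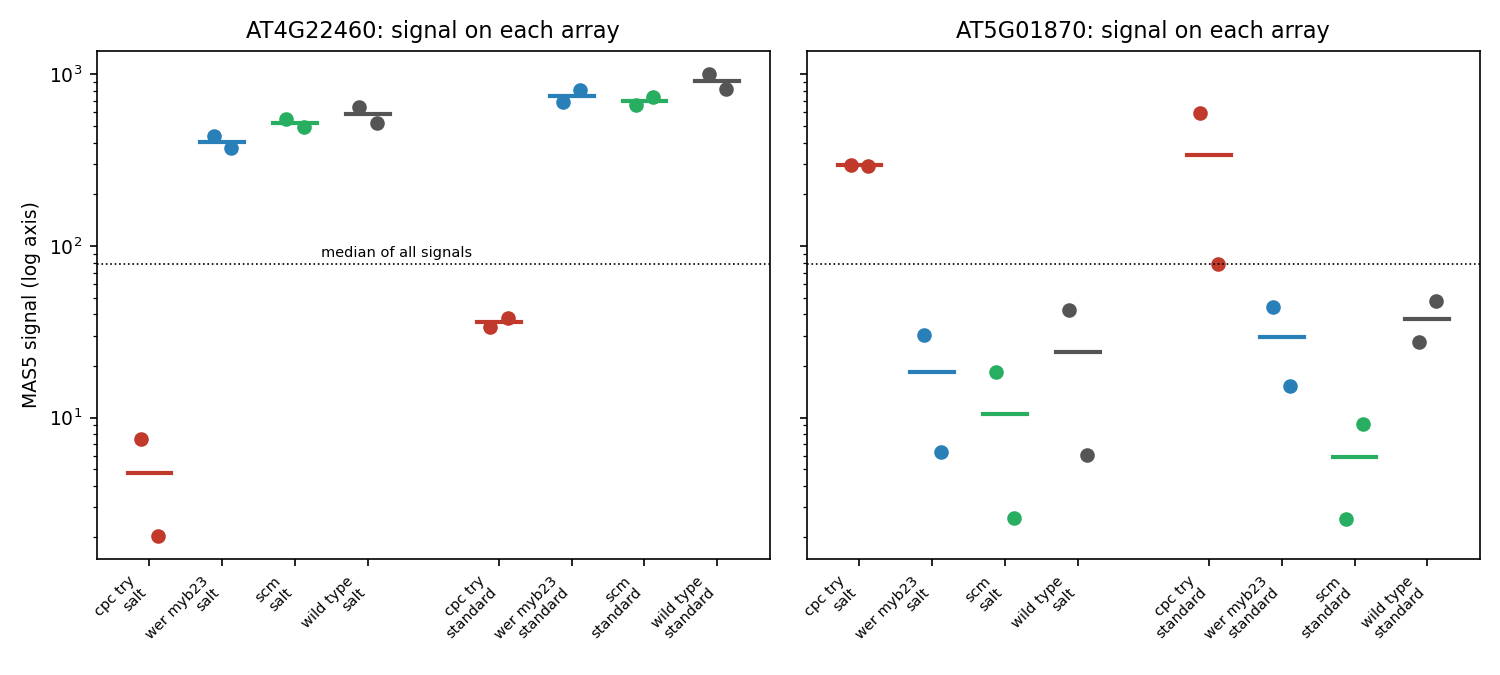
MAS5 signal (log axis) of AT4G22460 (left) and AT5G01870 (right) on each of the 16 arrays, by genotype and medium. Points are arrays, bars are means of 2 replicates, and the dotted line marks the median of all signals, 78.0. The cpc try points lie lowest for AT4G22460 and highest for AT5G01870.

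The order of the group means of AT4G22460 began with wild type, wer myb23 and scm on standard medium (913 ± 133, 748 ± 85.0 and 699.6 ± 55.8, SD, n = 2 each). It went on with wild type, scm and wer myb23 on salt (585 ± 90.6, 522 ± 41.0 and 403 ± 44.7). It ended with cpc try on standard medium (35.9 ± 3.02) and cpc try on salt (4.74 ± 3.83). Arrays of neighbouring groups overlapped for wer myb23 and scm on standard medium and for wild type and scm on salt, and for no other neighbours in this order. Every standard array of wer myb23, scm and wild type lay above every salt array of these 3 genotypes, and the cpc try arrays lay below all of them.

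AT5G01870 ran the other way, at lower and more scattered levels. On salt its signal was 296 and 293 in cpc try, 30.4 and 6.29 in wer myb23, 18.4 and 2.60 in scm, and 42.2 and 6.05 in wild type. On standard medium it was 595 and 78.2 in cpc try, 43.9 and 15.3 in wer myb23, 2.56 and 9.14 in scm, and 27.4 and 47.6 in wild type. All 4 arrays labelled cpc try lay above all of the other 12, which ranged from 2.56 to 47.6. Those 12 values stood between the 6.79th and the 38.7th percentile of their arrays, and replicates were as far apart as 18.4 and 2.60 in scm on salt and as near as 27.4 and 47.6 in wild type on standard medium.

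In the order of means of AT5G01870, cpc try on standard medium (337 ± 366) and on salt (295 ± 2.18) came highest, and their arrays overlapped. Wild type on standard medium (37.5 ± 14.3), wer myb23 on standard medium (29.6 ± 20.3), wild type on salt (24.1 ± 25.6), wer myb23 on salt (18.3 ± 17.0), scm on salt (10.5 ± 11.2) and scm on standard medium (5.85 ± 4.65) followed, all SD with n = 2. Each of these 6 groups overlapped the next in the order. The array labelled cpc try on standard medium, replicate 2 (78.2), was the nearest to the other genotypes, and replicate 1 of that group (595) was the highest of all 16. The probe set entered the tests through the cpc try arrays alone: its mean log2 value was 5.23 over all arrays, above the filter of 4.40, and 4.30 without cpc try, under the filter of 4.41 computed without them.

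Because the genes were picked for cpc try against wild type, the sizes of that difference are given without a test. Differences are on the scale of log2(signal + 4.10), 4.10 being the value under which 10% of all signals lie. Over both media, AT4G22460 differed by -5.32 ± 0.18 (SE) between cpc try and wild type, the 13th lowest of 17059 tested probe sets. It differed by -6.12 ± 0.25 on salt and by -4.51 ± 0.25 on standard medium. Against the other mutants it differed by -4.91 ± 0.18 (cpc try minus wer myb23) and -5.05 ± 0.18 (cpc try minus scm) over both media. The 2 cpc try salt signals lie about the offset itself, so the size on salt depends on it: with an offset of 1 it was -6.85 and with 16 it was -4.86. The limma test called 11.6% of all tested probe sets in cpc try against wild type, 6.91% lower and 4.71% higher.

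AT5G01870 differed by 3.12 ± 0.65 between cpc try and wild type over both media, the 5th highest of the 17059. On salt the difference was 3.78 ± 0.91, and on standard medium 2.46 ± 0.91. The difference on standard medium was 1.03 without replicate 1 of that cpc try group and 3.89 without its replicate 2. On salt it was 4.88 without replicate 1 of wild type and 2.69 without replicate 2. Against wer myb23 and scm it differed by 3.42 ± 0.65 and 4.58 ± 0.65 over both media. All these comparisons share the cpc try arrays, and those against wild type share the wild type arrays as well. In RNA of whole root tips, fewer cells of a type and less RNA per cell cannot be told apart.

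Root hair markers were also dim on the arrays labelled cpc try. Expressed as a share of the wild type mean, the cpc try mean of AT4G22460 was 0.811% on salt and 3.93% on standard medium. The shares of EXPA7, EXPA18, AT1G30870, GH9C1 and AT5G04960 were 0.937% to 3.86% on salt and 0.0906% to 3.98% on standard medium. The cpc try signals behind these shares lay low among all signals, so the shares show only that little signal was left and have no order among themselves. All 5 of these were lower in cpc try than in wild type over both media, with log2 differences of -7.62 to -4.48. In that comparison 6.91% of all probe sets were called lower. EXPA7 and EXPA18 are expansins of growing hairs. This marker list was drawn up with earlier results of these arrays known, so the differences are given as a description. ATMYC1 encodes a bHLH partner of the epidermal MYB proteins and was the only gene of the non-hair list that could be named. It was also lower, with 4.24 to 38.0 in cpc try against 261 to 318 in wild type. In wer myb23, mutated in drivers of non-hair fate, it read 341 to 418, so it is not used here as a marker of non-hair cells. The part of epidermal cell types in the values of AT4G22460 and AT5G01870 was not tested.

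**Figure D2:**
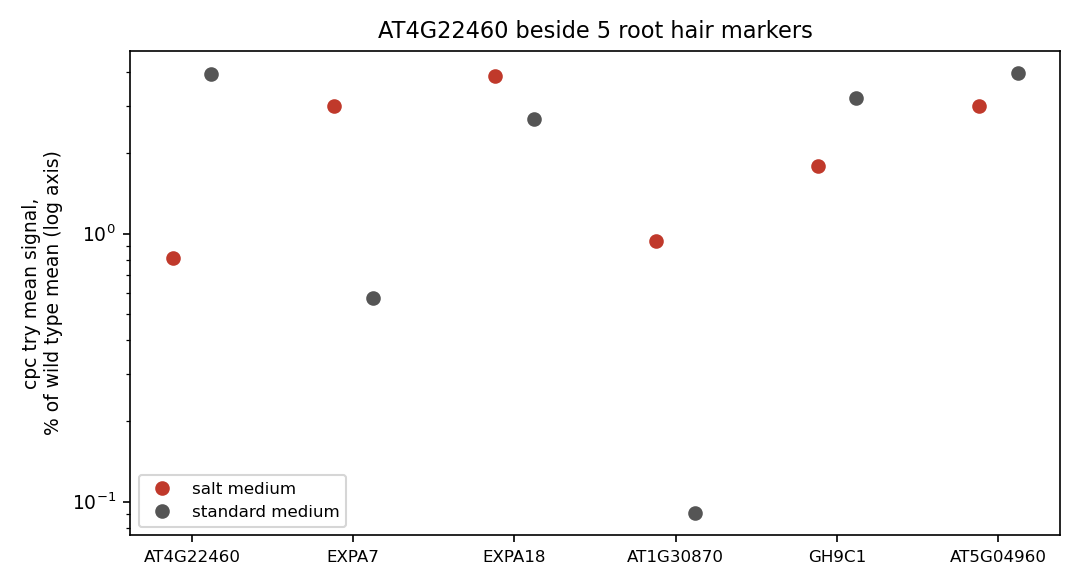
Mean signal on the cpc try arrays as a percentage of the wild type mean (log axis) for AT4G22460 and 5 root hair markers, on salt and on standard medium, each from 2 arrays per genotype. All shares lie under 4%, and that of AT4G22460 is 0.811% on salt and 3.93% on standard medium; the cpc try signals are low among all signals, so the order of the shares is not to be read.

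Salt lowered AT4G22460 on average. In each of the 4 genotypes both salt arrays lay below both standard arrays. How many of all probe sets were separated in this way was not counted, so the separation alone is not read as a salt effect. Mean signal ratios (salt over standard) were 0.539 in wer myb23, 0.746 in scm and 0.641 in wild type. For cpc try no ratio is given, since its salt signals (mean 4.74) lay about the value under which 10% of all signals fall, 4.10. Averaged over genotypes the log2 difference, salt minus standard, was -1.05 ± 0.13 (limma adjusted p = 1.45e-06), the 460th lowest of 17059, in a comparison that called 26.5% of all probe sets, 12.8% as lower. Leaving the cpc try arrays out of the average gave -0.65 (limma adjusted p = 0.00219), in a comparison that called 22.3%, 10.6% as lower. That alternative was chosen after seeing the data.

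The summed signal of the 5 root hair markers was 103 and 61.4 on salt against 70.4 and 102 on standard medium in cpc try, and 3016 and 3672 against 6213 and 4904 in wer myb23. It was 4673 and 4221 against 6135 and 5132 in scm, and 4808 and 3067 against 5216 and 6065 in wild type. Salt arrays thus lay below standard arrays in every genotype but cpc try. Averaged over genotypes, AT5G04960 fell by 1.51 ± 0.21 and EXPA18 by 1.11 ± 0.21 (limma adjusted p = 8.8e-06 and 0.000289), and none of the other 3 hair markers passed the test. That average includes cpc try, where the hair markers lay low among all signals, and is not given for them without cpc try. In cpc try alone, EXPA7 was higher on salt by 1.72 ± 0.28 (limma adjusted p = 0.000246) and AT5G04960 differed by -1.43 ± 0.41 (limma adjusted p = 0.0328), both at low signals. ATMYC1 differed by -1.59 ± 0.31 on salt in cpc try (limma adjusted p = 0.0014). Its cpc try signals were low too, 4.24 and 11.8 on salt and 24.4 and 38.0 on standard medium. JKD differed by -0.60 ± 0.20 on average (limma adjusted p = 0.0282) and by -1.46 ± 0.40 in wild type (limma adjusted p = 0.0229). Their part in the salt response of AT4G22460 was not tested.

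By genotype, the fall of AT4G22460 passed the test in cpc try (-2.25 ± 0.25, limma adjusted p = 2.89e-06, 9.61% of probe sets called and 4.19% called lower). It passed in wer myb23 (-0.89 ± 0.25, limma adjusted p = 0.0253, 11% called and 4.99% called lower). In scm the difference was -0.42 ± 0.25 (limma adjusted p = 0.433, 95% interval -0.95 to 0.10, 7.84% called). In wild type it was -0.64 ± 0.25 (limma adjusted p = 0.133, 95% interval -1.16 to -0.12, 8.89% called). The salt response in cpc try uses arrays on which the gene was chosen, and its values on salt, 7.45 and 2.04, lay low among all signals, so its size moved from -2.86 with an offset of 1 to -1.33 with an offset of 16. With the cpc try arrays fitted alone its adjusted p was 0.278. The call in wer myb23 was lost when any 1 of its 4 arrays was left out (limma adjusted p from 0.0723 to 0.210), with an offset of 1 (0.0878) and without a trend in the spread (0.0825).

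The salt response of AT4G22460 was not shown to differ from that of wild type in wer myb23 or scm, and cpc try was not tested for this. The difference of responses was -0.25 ± 0.36 for wer myb23 minus wild type (limma adjusted p = 0.981) and 0.22 ± 0.36 for scm minus wild type (limma adjusted p = 0.998). The first comparison called 0.00586% of probe sets. The second called 0, with 764 at an unadjusted p under 0.05 by limma. For cpc try minus wild type, given without a test, the difference of responses was -1.61 ± 0.36, and it was -2.22 with an offset of 1 and -0.70 with an offset of 16.

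Salt responses of AT5G01870 are given as values, since the probe set entered the tests through the cpc try arrays. The log2 difference, salt minus standard, was 0.43 ± 0.91 in cpc try, -0.69 ± 0.91 in wer myb23, 0.39 ± 0.91 in scm and -0.90 ± 0.91 in wild type. That in cpc try was not called (limma adjusted p = 0.853). In every genotype the salt arrays overlapped the standard arrays. In wer myb23, scm and wild type the probe set was dim and would not have passed the filter without the cpc try arrays, so these values do not bear on whether salt changed the gene there. Averaged over genotypes the difference was -0.19 ± 0.46, and nothing is read from it because the average includes these genotypes. The difference of salt responses was 0.21 ± 1.29 for wer myb23 minus wild type and 1.28 ± 1.29 for scm minus wild type. Without a test, it was 1.32 ± 1.29 for cpc try minus wild type. Nothing is read from these values either. Leaving out single arrays turned the sign of the response in each of the 4 genotypes.

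AT4G22460 did not pass the test between wer myb23, scm and wild type over both media. It differed by -0.41 ± 0.18 in wer myb23 minus wild type (limma adjusted p = 0.346, 0.51% of probe sets called) and by -0.27 ± 0.18 in scm minus wild type (limma adjusted p = 0.608, 0.141% called). It differed by -0.14 ± 0.18 in wer myb23 minus scm (limma adjusted p = 0.935, 95% interval -0.51 to 0.23, 0.733% called). AT5G01870 was dim in all 3 of these genotypes and entered the tests through cpc try, so its differences are given as values from which nothing is read. They were -0.30 ± 0.65 in wer myb23 minus wild type, -1.46 ± 0.65 in scm minus wild type and 1.16 ± 0.65 in wer myb23 minus scm. The standard error of these differences was 0.65 for AT5G01870, against 0.18 for AT4G22460.

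**Figure D3:**
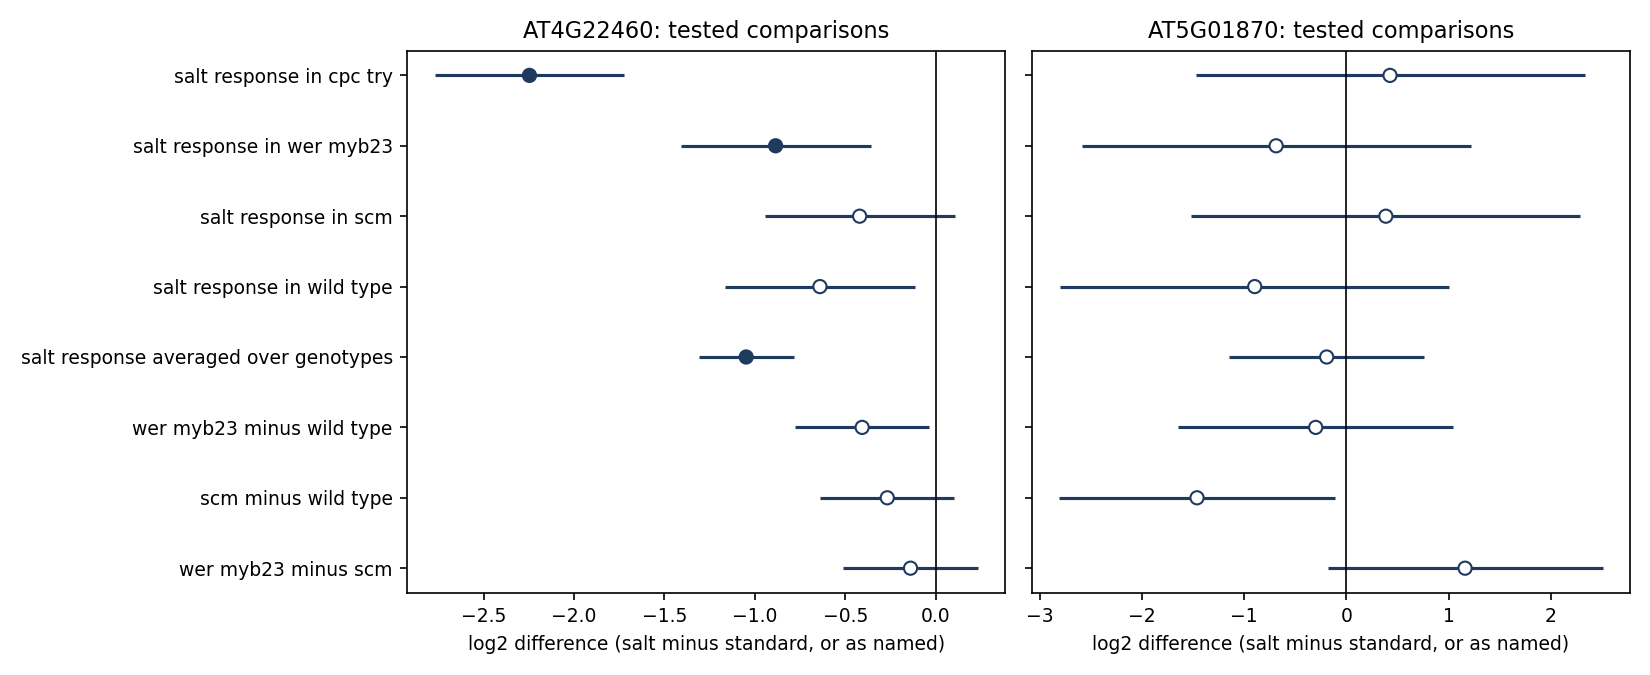
Log2 differences (points) with 95% intervals (lines) of AT4G22460 (left) and AT5G01870 (right) in the tested comparisons from the limma model of 16 arrays. Filled points have an adjusted p under 0.05. AT4G22460 has 3 filled points, the salt responses in cpc try, in wer myb23 and averaged over genotypes, and AT5G01870, dim in all genotypes but cpc try, has none. The open points of AT5G01870 are not read as a lack of change.

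Other genes of the superfamily were taken from 4 lists of 100 loci drawn up by locus, with AT5G01870 in the list of plant lipid transfer proteins and AT4G22460 in that of proline-rich and EARLI1-like proteins. The annotation named a probe set for 46 of the loci, and 28 passed the filter, including both genes. Of the other 26, 5 were higher and 1 was lower in cpc try than in wild type over both media, where 4.71% of all probe sets were called higher and 6.91% lower. Their median log2 difference was 0.28, against -0.02 for all probe sets.

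AT4G22640, in the list of glycosylphosphatidylinositol-anchored proteins and 27 genes from AT4G22460 on chromosome 4, was the one that was lower. Its signal was 58.1 to 104 in cpc try against 433 to 673 in wild type, a difference of -2.77 ± 0.17 (limma adjusted p = 3.09e-10), and the groups did not overlap. AT2G18370, the only other tested gene of the lipid transfer protein list, was higher by 1.82 ± 0.58 (limma adjusted p = 0.0467), with 35.2 to 162 in cpc try and 4.80 to 41.1 in wild type, and these arrays overlapped. AT2G37870, AT2G27130, AT2G45180 and AT1G62790 were higher by 0.32 to 0.88. Among the 28 tested genes of the lists, AT4G22460 had the lowest and AT5G01870 the highest difference, which follows from their choice.

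**Figure D4:**
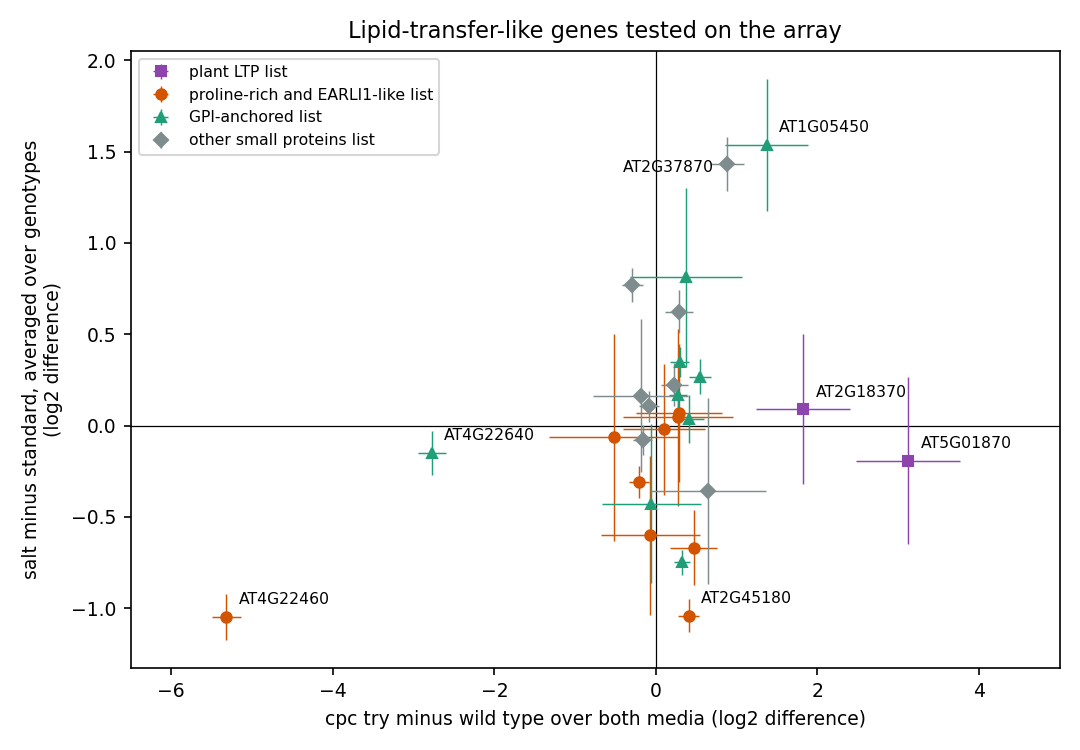
Log2 difference of cpc try minus wild type over both media (horizontal) against salt minus standard averaged over genotypes (vertical) for the 28 tested genes of 4 lists, with standard errors. AT4G22460 lies at -5.32 and -1.05, AT5G01870 at 3.12 and -0.19, and AT4G22640 at -2.77 on the horizontal axis.

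On salt, averaged over genotypes, 6 of the 26 other genes rose and 4 fell, where 13.6% of all probe sets were called higher and 12.8% lower, with a median of 0.06 against -0.00 for all probe sets. In the list that holds AT4G22460, 3 of 8 others fell and 0 rose: AT2G45180 (-1.04 ± 0.09, limma adjusted p = 1.29e-08), AT1G62500 (-0.67 ± 0.21, limma adjusted p = 0.0189) and AT1G62510 (-0.31 ± 0.09, limma adjusted p = 0.0117). The average of AT4G22460 was -1.05 with the cpc try arrays, where its salt signals were low, and -0.65 without them. Its size is therefore not compared with that of AT2G45180. AT2G45180 passed the test in each of the 4 genotypes, as did AT1G62790 (-0.75 ± 0.07 on average). In the opposite direction AT1G05450 rose by 1.54 ± 0.36, AT2G37870 by 1.43 ± 0.15, AT3G53980 by 0.77 ± 0.10 and AT4G33550 by 0.62 ± 0.12, and smaller rises were called for AT2G44300 (0.35 ± 0.08) and AT2G27130 (0.27 ± 0.10). AT2G37870 and AT3G53980 passed the test in each genotype. By genotype, the rises and falls called among the 26 were 4 and 2 in cpc try, 2 and 3 in wer myb23, 2 and 3 in scm, and 2 and 2 in wild type. Over all probe sets 5.42% were called higher and 4.19% lower in cpc try, 5.98% and 4.99% in wer myb23, 4.72% and 3.12% in scm, and 4.99% and 3.89% in wild type.

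Between the other genotypes the lists gave 1 call. AT1G62510 was higher in wer myb23 than in scm by 0.65 ± 0.13 (limma adjusted p = 0.0124), 1 of 26 in a comparison that called 0.733% of all probe sets. Of the 26 genes, 0 were called in wer myb23 or scm against wild type over both media, where limma called 87 and 24 of all probe sets and 2158 and 1921 had an unadjusted p under 0.05.

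Of the named neighbours of AT4G22460, AT4G22430 and AT4G22440 did not pass the filter. AT4G22450, a pseudogene next to AT4G22460, read 1.68 to 60.7 over all arrays. It differed by -0.35 ± 0.53 in cpc try minus wild type (limma adjusted p = 0.742). In the RefSeq gene order of TAIR10.1, AT4G22463 overlaps AT4G22460, and whether the probe set also reads it was not analysed here. AT4G22470, 3 genes away and in the same list as AT4G22460, read 5.69 to 68.9 over all arrays and differed by -0.07 ± 0.62 in cpc try minus wild type (limma adjusted p = 0.965). It differed by -0.60 ± 0.44 in salt minus standard averaged over genotypes (limma adjusted p = 0.357). Beside AT5G01870, AT5G01850 differed by -0.40 ± 0.30 and AT5G01860 by -1.16 ± 0.59 in cpc try minus wild type (limma adjusted p = 0.443 and 0.235), and AT5G01850 rose on salt by 0.63 ± 0.21 (limma adjusted p = 0.0318).

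The genes most alike to each were ranked by Pearson's r of the 8 group means of log2 values, over 9529 genes measured on the same arrays. For AT4G22460 these were AT3G32030 (r = 0.994), AT5G40860 (0.993), AT2G43535 (0.991), the glutathione transferase GSTU28 (0.988) and AT1G07700 (0.988), and 226 genes had an r above 0.9. Their differences in cpc try minus wild type ran from -4.91 (GSTU28) to -1.19 (AT1G07700). On salt, averaged over genotypes, GSTU28 fell by 0.79 ± 0.19 (limma adjusted p = 0.00374) and AT2G43535 fell by 0.39 ± 0.09 (limma adjusted p = 0.00296), while the other three did not pass the test. Over the 6 groups without cpc try the r of these genes was 0.62 to 0.87, and they ranked from 526th to 1916th.

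For AT5G01870 the most alike genes were AT1G20380 (r = 0.970), AT5G04390 (0.970), the plastid ribosomal protein gene rps4 (0.967), AT1G80130 (0.959) and AT4G16155 (0.957), and 31 genes had an r above 0.9. Their differences in cpc try minus wild type (± SE) were 1.12 ± 0.16 (AT1G20380), 0.82 ± 0.46 (AT5G04390) and 0.61 ± 0.14 (rps4). They were 1.13 ± 0.58 for AT1G80130 and 0.27 ± 0.14 for AT4G16155. Those of AT5G04390, AT1G80130 and AT4G16155 were not large beside their SE. All of these differences were smaller than the 3.12 of AT5G01870. Without the cpc try groups the r of these most alike genes was 0.68 to 0.84 over 6 groups, with ranks from 147th to 621st. Between AT4G22460 and AT5G01870 themselves r was -0.88 over 8 groups and 0.46 over the 6 groups without cpc try. Both rankings over 8 groups include the cpc try groups by which the pair was chosen, and ranking over the 6 other groups put other genes first, AT3G10610 for AT4G22460 (r = 0.995) and AT3G01175 for AT5G01870 (r = 0.985).

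**Figure D5:**
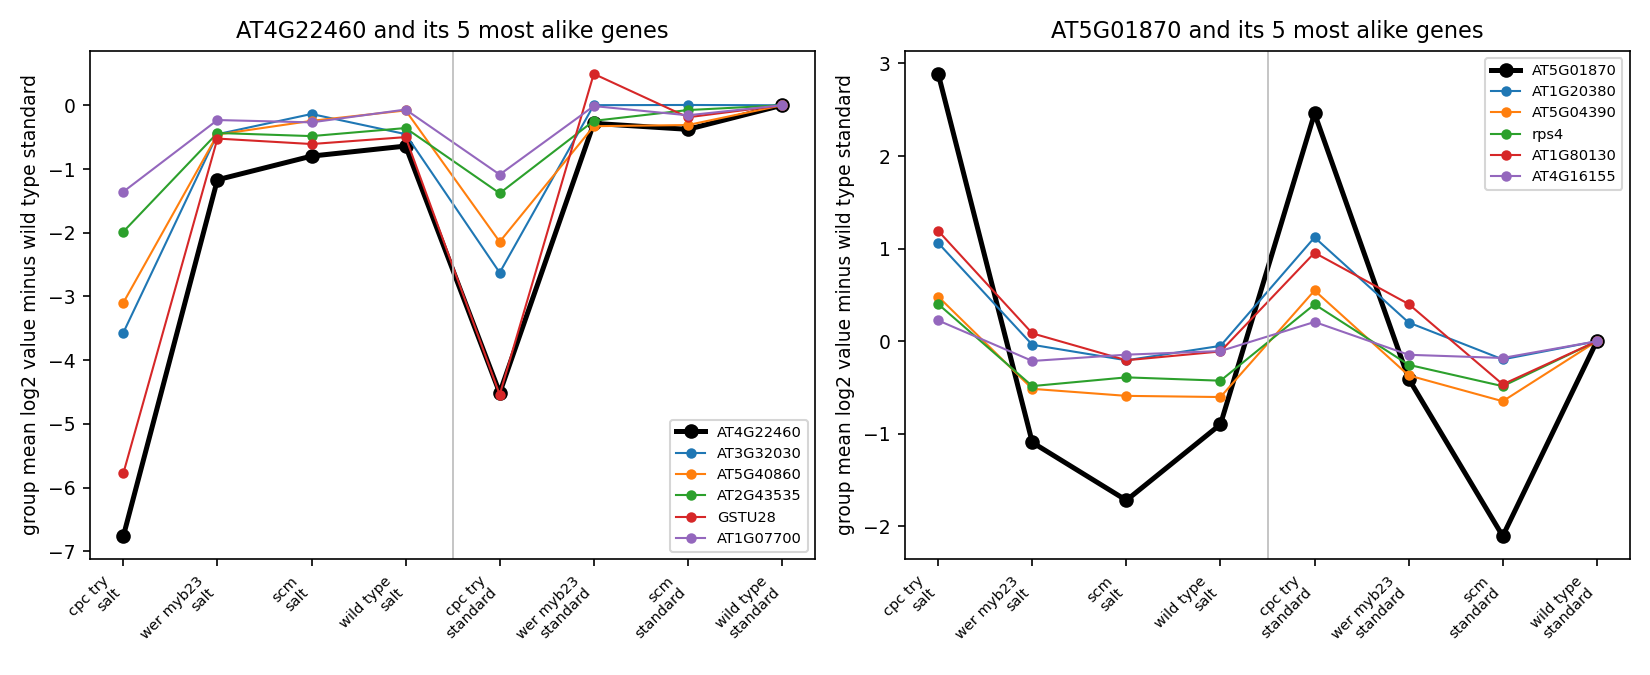
Group mean log2 value minus that of wild type on standard medium, over the 8 groups, for AT4G22460 (left) and AT5G01870 (right, black lines) and the 5 genes most alike to each (coloured). Every line for AT4G22460 dips in both cpc try groups, and every line for AT5G01870 peaks there.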

How the data were processed

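The authors deposited one linear intensity value per probe set and array, for 16 arrays; the submitters' processing notes name MAS5. The version and scaling target of MAS5 are not given in the sources used, and detection calls were not used here. Arrays were grouped by title. Of 22810 probe sets, 64 controls were left out. Values were taken as log2(signal + 4.10), and probe sets with a mean under the 25th percentile were dropped, which left 17059. All arrays entered 1 limma model (limma 3.58.1, R 4.3.3) with a mean per group, a trend in the spread and 8 residual degrees of freedom; 2 arrays per group limit the precision. Tests were two-sided and Benjamini-Hochberg adjusted over all probe sets, with calls at an adjusted p under 0.05. The model and its test, but not the offset, the filter or the naming of genes, were tried on simulated log2 values with known salt changes. Genes were named from the platform annotation (13513 probe sets with 1 gene, 503 with several, 8730 with none). The genes and lists were chosen with earlier results of these data known. Of each list, genes called in a comparison were named, up to the 4 with the smallest p, besides the 5 most alike genes. Alternatives were another offset, filter, normalization, a fit without trend, with a replicate block, of the compared arrays alone, and without single arrays.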

Additional observations from a re-analysis of the deposited data

How the results depend on the processing

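AT4G22460 kept the direction of all its differences under every alternative run, and its averaged salt response was called under all of them (-1.20 to -0.65 besides single arrays left out). The salt response in wer myb23 lost its call with an offset of 1 (-0.89, limma adjusted p = 0.0878) and without the trend (-0.89, 0.0825), and that in cpc try lost it with the compared arrays alone (-2.25, 0.278). The untested difference between cpc try and wild type was -5.74 over both media and -6.85 on salt with an offset of 1, and -4.51, -4.86 and, on standard medium, -4.16 with an offset of 16. The difference of salt responses between them was -2.22 and -0.70 with these offsets. Without single arrays the wer myb23 response lay between -1.001 and -0.77, cpc try against wild type on salt between -6.58 and -5.66, and the difference of responses between -2.06 and -1.15.

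AT5G01870 was called in no comparison tested here under any alternative. This says nothing of stability or of a lack of change, since it was dim outside cpc try and entered the tests through the cpc try arrays. Without single arrays its ranges were -1.01 to 1.86 (salt response in cpc try), -1.55 to 0.18 (wer myb23), -0.49 to 1.26 (scm), -1.99 to 0.20 (wild type) and -0.55 to 0.17 (average). They were -0.85 to 0.25 (wer myb23 minus wild type) and -0.89 to 1.30 (difference of their responses). Untested cpc try minus wild type ranged from 2.69 to 4.88 on salt and from 1.03 to 3.89 on standard medium, and the difference of their responses from -0.11 to 2.76. With a filter at the median the gene was not tested. The cause of these changes was not tested.

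Replicate numbers are shared by the groups, and replicate differences of 28 pairs of groups correlated with r from -0.034 to 0.052. These values cover all tested probe sets together and show no shift across them common to a replicate number. A shift of fewer genes that follows the replicate number could go unseen. Batches that do not follow that number were not tested. With a replicate block the salt response of AT4G22460 in wer myb23 was -0.89 (limma adjusted p = 0.0198), and the block changed no call of either gene. It moved the count of called probe sets in wer myb23 minus wild type to 133, against 87.

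Over the alternatives the called probe sets numbered 886 to 1756 (salt response in cpc try, 1639 as reported), 989 to 2499 (wer myb23, 1872), 694 to 1739 (scm, 1338), 917 to 1646 (wild type, 1516), 3814 to 4671 (average, 4515), 1304 to 2451 (cpc try minus wild type, 1981), 12 to 144 (wer myb23 minus wild type, 87), 3 to 67 (scm minus wild type, 24) and 11 to 280 (wer myb23 minus scm, 125). Centring on the median moved the median of all probe sets in cpc try minus wild type to 0.11 and in scm minus wild type to 0.10.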
